A study of Homo sapiens with 24 samples.

Results

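The TSC22 domain family is a set of 4 genes, *TSC22D1*, *TSC22D2*, *TSC22D3* and *TSC22D4*, and its members were taken by gene symbol. No measured value entered that rule, but the choice was made with earlier results of these data known. All 4 of the 4 were among the 33127 genes of the count table, and their 31 transcripts were among its 119207 transcripts. The cells were A549, a human lung adenocarcinoma-derived line of epithelial origin, and every library came from this 1 line. The treated cells received 100 nM dexamethasone (dex), a synthetic glucocorticoid, dissolved in ethanol, and the control cells received the same volume of ethanol (EtOH, 0.02% of the medium) alone. RNA-seq libraries of polyadenylated RNA covered each treatment at 6 durations, every 2 h from 1 to 11 h, with 2 biological replicates for each of the 12 groups and 24 libraries in all. The study's methods describe triplicates, whereas the labels used here give 2 replicates per group. The label text on treatment states 1 h for every library, whereas the labelled duration runs from 1 to 11 h, and the durations were used here.

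Proteins of the TSC22 family carry a short conserved TSC box followed by a leucine zipper, through which they pair with themselves and with one another. *TSC22D3* encodes GILZ, the glucocorticoid-induced leucine zipper, which is a classical target of the glucocorticoid receptor and is known to bind and restrain NF-kB, AP-1 and the Ras-Raf pathway. *TSC22D1* was first described as a transcript stimulated by TGF-beta, and the long proteins of *TSC22D1*, *TSC22D2* and *TSC22D4* are known partners of NRBP1 and the WNK kinases, which control ion transport and cell volume.

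*TSC22D3* lies on the minus strand of chromosome X, from 107713221 to 107777342 in GRCh38, and its annotated transcripts begin in separate regions towards the opposite ends of the gene. Both start regions are shown because transcripts counted below begin in them, though not all at the starts shown. Of the transcripts specific to the downstream region, ENST00000503515 begins at 107717062 and ENST00000486554 at 107716401. The 7 specific to the upstream region begin between 107776115 and 107777342, all upstream of the window shown, so its matches do not precede their starts. The windows are the 250 bases before an annotated RefSeq transcript start (GRCh38.p14), written 5′ to 3′ along the transcribed minus strand. The first, at chrX:107717063-107717312, precedes the downstream start at 107717062, and the second, at chrX:107775788-107776037, precedes the upstream start at 107775787. Capitals mark matches to TATAAA, to the forkhead core GTAAACA (here read on the other strand) and to TGACG, the core of cyclic AMP response elements.

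*TSC22D3* downstream start: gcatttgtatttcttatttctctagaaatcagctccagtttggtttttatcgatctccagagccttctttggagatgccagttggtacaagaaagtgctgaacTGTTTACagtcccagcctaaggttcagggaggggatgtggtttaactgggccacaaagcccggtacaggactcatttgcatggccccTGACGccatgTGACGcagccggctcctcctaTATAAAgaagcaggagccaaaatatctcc
*TSC22D3* upstream start: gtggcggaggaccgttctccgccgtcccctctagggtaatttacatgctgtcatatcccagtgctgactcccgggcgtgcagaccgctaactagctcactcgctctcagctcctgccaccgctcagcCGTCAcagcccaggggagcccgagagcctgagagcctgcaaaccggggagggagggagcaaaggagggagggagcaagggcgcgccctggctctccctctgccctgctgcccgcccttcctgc

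In the downstream window, TATAAA began 29 bases before the start, the forkhead match lay at -147, and TGACG lay at -60 and -50. The upstream window held a single TGACG, on the other strand, at -123. Of 34943 promoter windows of this length in the RefSeq table, 10.75% held TATAAA, 2.98% held GTAAACA and 21.18% held TGACG on either strand. The hexamer AGAACA of glucocorticoid response elements, held by 12.42% of windows, was not among the letters of the 4 *TSC22D3* windows in that table. These matches describe sequence only.

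The 24 libraries held 6708864 to 13748598 counts each (median 9975978.5 in dex and 10112359.5 in EtOH), which sets the precision for each member. The epithelial keratins *KRT8*, *KRT18* and *KRT7* and the A549 markers *ALDH1A1*, *AKR1B10* and *AKR1C2* were each at 673.9 CPM or more in every library. Of the leukocyte, endothelial, fibroblast and erythroid markers, *CD3E* and *HBB* had 0 counts in every library, *PTPRC* had at most 3, *VWF* at most 1, *COL3A1* at most 12, and *CD14*, which had 7 to 36, was the highest. No value was obtained for the endothelial marker *PECAM1*. The ranges of some epithelial markers over all time points differed between treatments but overlapped, and no test is given for them. *KRT8* ran from 1938 to 5007 CPM in dex against 1437 to 2484 CPM in EtOH. *KRT18* ran from 1889 to 5437 CPM against 1751 to 2713 CPM, and *EPCAM* from 4.02 to 8.79 CPM against 7.35 to 11.3 CPM. *KRT19* was at 7.93 to 16.7 CPM in dex against 10.1 to 21.5 CPM in EtOH, and *CDH1* at 33.4 to 59.4 CPM against 28.8 to 39.7 CPM. The part of these differences in the members' results was not tested. Replicates of 1 group correlated at 0.982 or more on the log2 CPM scale over all genes tested.

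GILZ transcripts rose at once and stayed high. Levels are CPM, in which each count is scaled to a library total adjusted by TMM, and are summed over the transcripts of a gene. Exceptions are the CPM values of the cell markers, of single transcripts and of *AGFG2*, which were scaled to the unadjusted library total. At 1 h, *TSC22D3* stood at 75.3 and 84.8 CPM in the dex libraries against 7.13 and 9.65 CPM in the EtOH libraries. At 3 h it stood at 176 and 161 CPM against 7.55 and 7.71 CPM. At 5 h the values were 159 and 166 CPM against 8.22 and 6.33 CPM. Through these hours every dex library was far above every EtOH library, and the highest level of the series was reached at 3 h. At 7 h, *TSC22D3* stood at 114 and 115 CPM in dex against 6.43 and 7.05 CPM in EtOH. At 9 h it stood at 123 and 124 CPM against 9.89 and 8.51 CPM. At 11 h the values were 136 and 133 CPM against 6.55 and 6.69 CPM. The groups did not overlap at any time point, and the lowest of the 12 dex libraries (75.3 CPM) was above the highest of the 12 EtOH libraries (9.89 CPM). Groups of 2 libraries can lie apart without an effect, and the share of all genes with groups apart was not counted. Here and for the other members, statements that groups were apart at a time point are therefore descriptions of level. In raw counts the gene ran from 52 to 1790 per library.

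**Figure D1:**
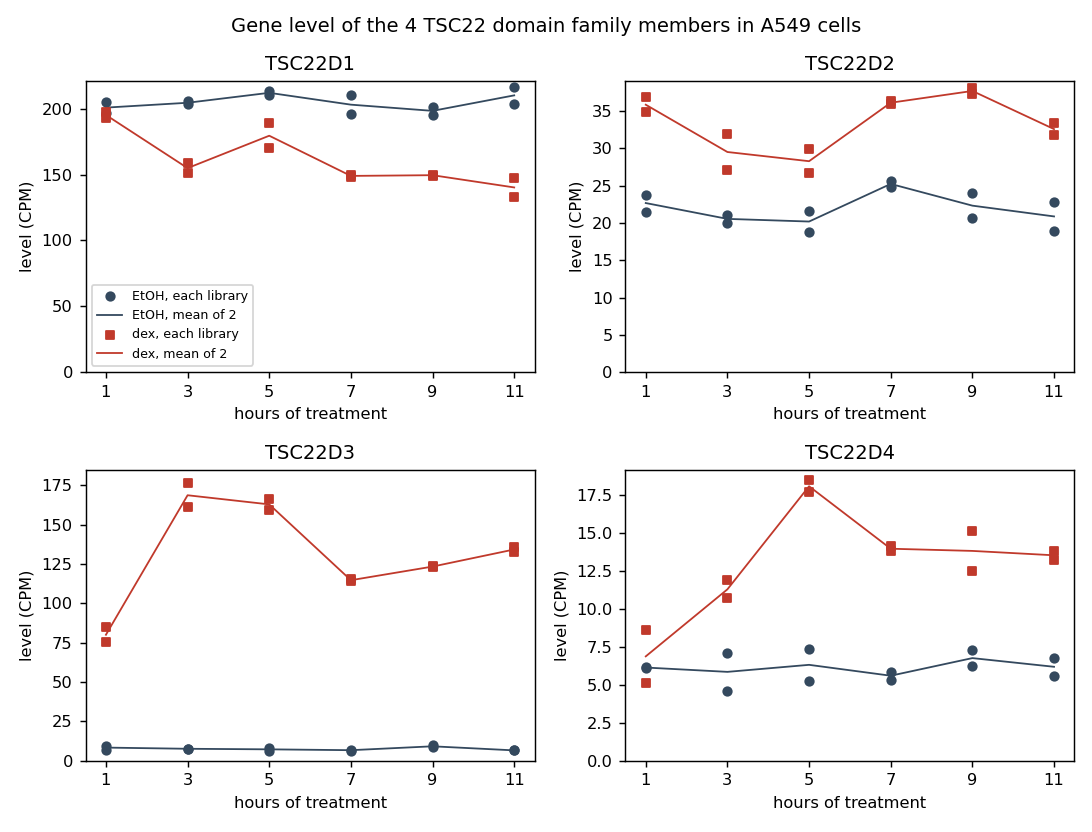
Level in CPM (vertical axes, from 0) of the 4 members against hours of treatment, with a circle for each EtOH library, a square for each dex library and lines through the means of 2. *TSC22D3* in dex lies between 75.3 and 176 CPM while its EtOH libraries stay at 6.33 to 9.89 CPM, *TSC22D2* and *TSC22D4* lie higher in dex and *TSC22D1* lower.

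The log2 fold change of *TSC22D3* was 3.25 at 1 h (SE 0.16), 4.45 at 3 h (SE 0.13), 4.49 at 5 h (SE 0.14), 4.09 at 7 h (SE 0.12), 3.75 at 9 h (SE 0.14) and 4.34 at 11 h (SE 0.17). With edgeR's quasi-likelihood F-test and p-values adjusted by Benjamini-Hochberg, the adjusted p was 3.01e-10 at 1 h, 5.23e-29 at 5 h and 6.83e-09 at 11 h, and *TSC22D3* was called, at an adjusted p of at most 0.1, at 6 of 6 time points. *TSC22D3* had the smallest p-value of all 19897 genes tested at 1 and 3 h. At 5, 7, 9 and 11 h its rank by p-value was 2, 6, 5 and 3. Ranked by log2 fold change from the highest, it was 6, 16, 33, 37, 48 and 32 at the 6 time points in order. The share of all tested genes called higher in dex was 0.523% at 1 h, 7.66% at 3 h, 11.2% at 5 h, 13.4% at 7 h, 9.79% at 9 h and 5.31% at 11 h. Over the 6 time points in 1 fit to the 24 libraries, the mean dex effect was 4.06 on the log2 scale (SE 0.056), a 16.7-fold difference, where 16.4% of tested genes had a higher mean and 17.6% a lower mean in dex. In bulk RNA, more cells with the transcript and more transcript per cell cannot be told apart.

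The size of the *TSC22D3* response changed over time. The test of any difference in the dex effect among the 6 time points gave an adjusted p of 8.43e-05 in edgeR's quasi-likelihood test, and 13.8% of tested genes passed it. From 1 to 3 h the dex effect grew by 1.22 on the log2 scale (SE 0.19), with an adjusted p of 0.000156 from the same edgeR test, a step at which 4.39% of genes were called in either direction. Later steps did not pass: the effect moved by 0.03 from 3 to 5 h, by -0.41 from 5 to 7 h, by -0.35 from 7 to 9 h and by 0.60 from 9 to 11 h, with SEs of 0.19 to 0.20. The share of genes called at those steps was 6.01%, 0%, 0.0653% and 0.533%, in that order. The mean EtOH level was highest at 9 h, at 9.20 CPM, and its part in the smaller fold change at 9 h was not tested. Within the dex libraries alone, the level of *TSC22D3* changed over time with an adjusted p of 1.16e-07 (edgeR), a test passed by 26.8% of genes. Within the EtOH libraries alone the adjusted p was 0.423 (edgeR), a test passed by 0.0704% of genes.

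**Figure D2:**
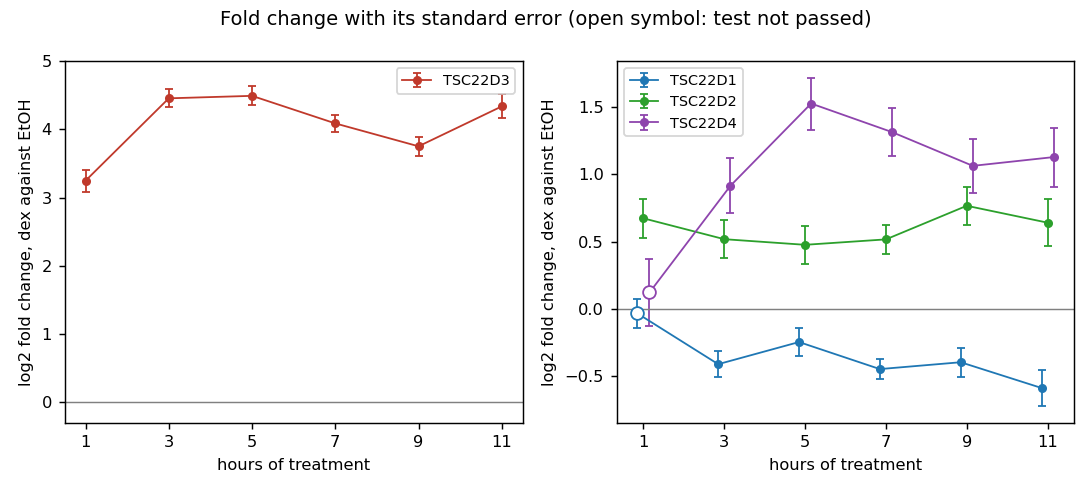
Log2 fold change of dex against EtOH (vertical axes) with its standard error (bars) at each hour of treatment, *TSC22D3* on the left and the other members on the right, on different scales. *TSC22D3* rises from 3.25 at 1 h to 4.45 at 3 h, *TSC22D4* reaches 1.53 at 5 h, *TSC22D2* keeps between 0.48 and 0.77, and *TSC22D1* lies below 0 from 3 h; open symbols mark the 2 values, *TSC22D1* and *TSC22D4* at 1 h, that did not pass the test.

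Transcripts of *TSC22D3* rose together. Of its 17 transcripts, 10 passed the filter on low counts, several of them only through the dex libraries, so the following counts are partly set by the filter and are given as a description. ENST00000486554, ENST00000503515, ENST00000506081 and ENST00000514426 had medians of 0 to 0.294 CPM in EtOH. By edgeR's quasi-likelihood test 9 of these were called higher in dex at 1 h (5 by DESeq2) and 10 of 10 at every later time point, whereas 0.27%, 4.29%, 7.55%, 8.6%, 6% and 3.19% of the 56380 tested transcripts were called higher at these 6 times in order. The 5 long protein-coding transcripts, of which ENST00000372390 and ENST00000372397 begin in the downstream region and ENST00000315660, ENST00000372383 and ENST00000372384 in the upstream region, together held 85.0 to 88.9% of the gene's counts in dex and 76.9 to 93.9% in EtOH. Each of them alone held 14.4 to 20.4% in dex. Median levels in dex ran from 21.2 CPM for ENST00000372383 to 23.0 CPM for ENST00000372397, against 1.22 to 1.59 CPM in EtOH. These 5 share most of their sequence, and between 13.0 and 30.9% of the 50-base windows of each (the read length) lay only in transcripts of its own start region. With at least 10 counts required in every library, 1 transcript of the gene was tested, and it was called at each time point. How the authors placed a read that matches several transcripts was not stated, so the near-equal shares do not tell the starts apart.

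Some shorter transcripts are specific to a start region. This set was chosen after values were seen, as the *TSC22D3* transcripts with at least 80% of their windows in a single start region. The 2 from the downstream region, ENST00000486554 and ENST00000503515, summed to 290 counts over the 12 dex libraries and 15 over the 12 EtOH libraries. Every dex library had at least 13 such counts, and no EtOH library had more than 5. Relative to library totals, the ratio of dex to EtOH was 20.5 (95% exact interval 12.2 to 37.1, counting error only). The 7 from the upstream region summed to 43 counts in dex and 2 in EtOH, a ratio of 22.8 with a wide interval of 5.94 to 194.1. Their counts were sparse. In the dex libraries they were 1 and 0 at 1 h, 1 and 0 at 3 h, 5 and 5 at 5 h, 4 and 2 at 7 h, 5 and 9 at 9 h, and 5 and 6 at 11 h. The downstream set had 13 and 21 counts at 1 h and 26 and 43 at 3 h in the dex libraries. The upstream set had fewer than 10 counts in every library, and a difference in timing was not tested.

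**Figure D3:**
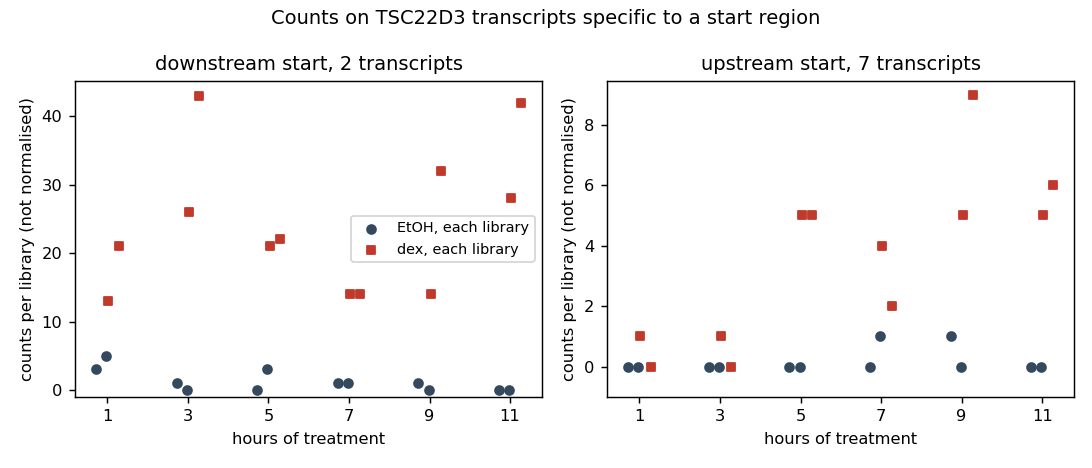
Raw counts per library (vertical axes, different scales) on *TSC22D3* transcripts specific to a start region, against hours of treatment, with circles for EtOH and squares for dex. The downstream set has 13 to 43 counts in every dex library, while the upstream set has at most 1 count in a dex library at 1 and 3 h and 2 to 9 counts from 5 h.

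No change in isoform usage was called for the family. The edgeR test of each transcript against the other transcripts of its gene called 0 transcripts of the 4 members at any time point, and 0.00282% of all such tests over the 6 time points passed. At an unadjusted p under 0.05 the count was 3 of the members' 132 tests over the 6 time points, and 3 of 22 in 1 fit over the 24 libraries, where 0 passed the adjusted threshold. The *TSC22D1* transcript ENST00000472477 had the smallest of these, with an unadjusted p of 0.000882 and an adjusted p of 0.947 in edgeR's quasi-likelihood fit. The test cannot tell unchanged usage from an even placement of shared reads. Only 13.0 to 30.9% of the windows of each long *TSC22D3* transcript, and 7.9% of those of ENST00000261489, were specific to a start region. In simulated counts at 5 h without shared reads, the test recovered 76% of better-counted transcripts changed 4-fold.

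*TSC22D4* rose later and less. It lies on the minus strand of chromosome 7, from 100463359 to 100479279 in GRCh38, and was the scarcest member, with 45 to 202 counts per library. At 1 h it stood at 5.13 and 8.64 CPM in dex and at 6.17 and 6.12 CPM in EtOH. At 3 h it stood at 11.9 and 10.7 CPM against 4.59 and 7.13 CPM. At 5 h the values were 17.7 and 18.5 CPM against 7.40 and 5.25 CPM. The groups overlapped at 1 h and were apart from 3 h on, with the highest levels at 5 h. At 7 h the values were 13.8 and 14.1 CPM against 5.34 and 5.87 CPM. At 9 h they were 12.5 and 15.2 CPM against 6.24 and 7.30 CPM. At 11 h they were 13.3 and 13.8 CPM against 6.80 and 5.59 CPM. From 3 h on, every dex library lay above all 12 EtOH libraries, the highest of which had 7.40 CPM.

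The log2 fold change of *TSC22D4* was 0.12 at 1 h (SE 0.25) and did not pass the test. It was 0.91 at 3 h (SE 0.20), 1.53 at 5 h (SE 0.19), 1.31 at 7 h (SE 0.18), 1.06 at 9 h (SE 0.20) and 1.13 at 11 h (SE 0.22). By edgeR's quasi-likelihood test the adjusted p was 0.986 at 1 h, 0.00225 at 3 h, 1.90e-08 at 5 h and 0.00499 at 11 h, so that it was called at 5 of 6 time points. Of all genes tested, 5.31 to 13.4% were called higher in dex at the time points from 3 h on. The mean dex effect was 1.01 (SE 0.089), a 2.02-fold difference. The dex effect differed among the time points with an adjusted p of 0.0366 (edgeR), while no single step passed, the step from 1 to 3 h being 0.81 with an adjusted p of 0.201 (edgeR). The 1-h value rested on 1 library: without dex replicate 2 it was -0.25. At 9 h it was 0.90 with an adjusted p of 0.106 without dex replicate 2, and at 11 h 0.98 with an adjusted p of 0.160 without EtOH replicate 2, both from edgeR. All 3 tested transcripts had a higher fitted level in dex at every time point. The most abundant of them, ENST00000300181, had a median of 4.68 CPM in EtOH and 8.79 CPM in dex.

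*TSC22D2* rose modestly from the first hour. It lies on the plus strand of chromosome 3, from 150408335 to 150466431 in GRCh38, and had 173 to 507 counts per library. At 1 h it stood at 36.9 and 34.8 CPM in dex against 23.8 and 21.5 CPM in EtOH. At 3 h it stood at 27.1 and 31.9 CPM against 21.1 and 20.0 CPM. At 5 h the values were 26.7 and 29.9 CPM against 18.8 and 21.6 CPM. The groups were apart at each of these times, by much less than for *TSC22D3*. At 7 h the values were 35.9 and 36.4 CPM against 25.6 and 24.9 CPM. At 9 h they were 37.3 and 38.1 CPM against 23.98 and 20.7 CPM. At 11 h they were 33.4 and 31.8 CPM against 22.8 and 18.96 CPM. The groups did not overlap at any time point, which for groups of 2 libraries is a description only. The lowest dex library of the series (26.7 CPM) was just above the highest EtOH library (25.6 CPM).

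The log2 fold change of *TSC22D2* was 0.67 at 1 h (SE 0.14), 0.52 at 3 h (SE 0.14), 0.48 at 5 h (SE 0.14), 0.52 at 7 h (SE 0.11), 0.77 at 9 h (SE 0.14) and 0.64 at 11 h (SE 0.17). In edgeR's quasi-likelihood test the adjusted p was 0.0275 at 1 h, 0.000529 at 7 h and 0.0434 at 11 h, and it was called at 6 of 6 time points. Of all genes tested, 0.523% were called higher in dex at 1 h and 5.31 to 13.4% at the later times. The mean dex effect was 0.60 (SE 0.052), a 1.51-fold difference, with an adjusted p of 1.59e-10 (edgeR). A difference in the dex effect among time points was not detectable (adjusted p = 0.791, edgeR). Several of the calls were lost in fits without 1 library, at 1 and 11 h also where the estimate was larger. Without 1 library the log2 fold change ran from 0.60 to 0.74 at 1 h and 0.39 to 0.63 at 3 h. It ran from 0.39 to 0.59 at 5 h and 0.50 to 0.78 at 11 h. In the edgeR fit at 1 h the adjusted p was 0.167 without EtOH replicate 1 and 0.802 without EtOH replicate 2, and at 3 h it was 0.153 without dex replicate 2. In the same fit at 5 h it was 0.134 without dex replicate 2 and 0.126 without EtOH replicate 1, and at 11 h it was 0.212 without EtOH replicate 1 and 0.700 without EtOH replicate 2. Of its 4 tested transcripts, 3 had a higher fitted level in dex at every time point, among them ENST00000361875 (12.8 CPM in EtOH and 18.97 CPM in dex, medians) and ENST00000466814 (7.66 and 12.1 CPM). Of the 11105 windows of ENST00000361875, 48 also occur in transcripts of other genes on the same strand and 59 on the opposite strand, and since the use of strand in counting was not stated, a small share of its counts is uncertain.

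*TSC22D1* fell, from 3 h on. It lies on the minus strand of chromosome 13, from 44432143 to 44577147 in GRCh38, and was the most abundant member in vehicle, with 1038 to 2844 counts per library. At 1 h it stood at 198 and 193 CPM in dex and at 197 and 205 CPM in EtOH. At 3 h it stood at 159 and 151 CPM against 203 and 206 CPM. At 5 h the values were 170 and 189 CPM against 214 and 210 CPM. The groups overlapped at 1 h and were apart at 3 and 5 h, with the dex libraries lower. At 7 h the values were 150 and 148 CPM against 196 and 210 CPM. At 9 h they were 149 and 150 CPM against 195 and 201 CPM. At 11 h they were 148 and 133 CPM against 217 and 203 CPM. From 3 h on, every dex library lay below all 12 EtOH libraries, the lowest of which had 195 CPM.

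The log2 fold change of *TSC22D1* was -0.03 at 1 h (SE 0.11), -0.41 at 3 h (SE 0.097), -0.25 at 5 h (SE 0.10), -0.45 at 7 h (SE 0.077), -0.40 at 9 h (SE 0.11) and -0.59 at 11 h (SE 0.14). By edgeR's quasi-likelihood test the adjusted p was 0.996 at 1 h, 0.00374 at 3 h, 0.0867 at 5 h and 2.60e-05 at 7 h, and it was called at 5 of 6 time points. The share of all tested genes called lower in dex was 0.342% at 1 h, 5.29% at 3 h, 11.9% at 5 h, 12.4% at 7 h, 8.42% at 9 h and 3.27% at 11 h. The mean dex effect was -0.35 (SE 0.036), a ratio of 0.783, and the dex effect differed among the time points with an adjusted p of 0.0370 (edgeR). That difference did not pass with no filter on low counts (adjusted p = 0.227, edgeR). The 5-h call was the least firm: the adjusted p was 0.214 with DESeq2, and in edgeR it was 0.433 without dex replicate 1, 0.217 without EtOH replicate 1 and 0.194 without EtOH replicate 2. In edgeR at 9 h the adjusted p was 0.366 and 0.328 without dex replicates 1 and 2, and at 11 h it was 0.424 and 0.212 without EtOH replicates 1 and 2.

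Long and short *TSC22D1* transcripts were both lower in dex. The short ENST00000261489, which starts at 44436845, had a median of 84.7 CPM in EtOH and 59.2 CPM in dex and was the only tested transcript of the gene with a lower fitted level in dex at every time point. The long ENST00000458659, which starts at 44576565, had 81.2 CPM in EtOH and 59.9 CPM in dex. Their shares of the gene's counts were close in the treatments, with medians of 41.1% in EtOH and 38.6% in dex for the short transcript and 38.8% and 40.2% for the long one, and the ranges of both overlapped between treatments. The minor transcript ENST00000472477, from a start at 44474250 between the others, fell from a median of 4.17 to 2.42 CPM, with log2 fold changes of -1.20 at 3 h and 0.06 at 5 h at the extremes. Only 7.9% of the windows of ENST00000261489 are absent from the other *TSC22D1* starts, so its share also depends on how shared reads were placed.

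The order of the members by level changed with treatment. Levels were compared per kilobase, dividing CPM by the mean transcript length of each gene weighted by counts (3887.8 bases for *TSC22D1*, 7209.9 for *TSC22D2*, 1943.2 for *TSC22D3* and 2074.3 for *TSC22D4*). In EtOH, *TSC22D1* led with 50.2 to 55.8 CPM per kilobase, followed by *TSC22D3* with 3.26 to 5.09, *TSC22D2* with 2.61 to 3.55 and *TSC22D4* with 2.21 to 3.57. The ranges of the last 3 overlapped, so only the first place was clear of the spread. In dex, *TSC22D3* had a median of 65.9 CPM per kilobase (38.8 to 90.8) and *TSC22D1* one of 38.7 (34.1 to 50.9), followed by *TSC22D4* at 6.52 (2.47 to 8.91) and *TSC22D2* at 4.73 (3.70 to 5.28). The overlap between *TSC22D3* and *TSC22D1* came from 1 h, when *TSC22D3* had 0.762 and 0.882 times the level of *TSC22D1* in the dex libraries. At 3 h that ratio was 2.23 and 2.13, and from 5 to 11 h it lay between 1.53 and 2.00 in each dex library. Of the level summed over the family, *TSC22D3* made up 5.14 to 8.26% in EtOH and 39.9 to 64.4% in dex.

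The genes most like each member over the 12 groups were found by the Pearson correlation of group means of log2 CPM over 10140 protein-coding genes, given as a description over 12 points that share libraries. *TSC22D3* was most like *PER1* (r = 0.992), a clock gene, *ZFP36* (r = 0.992), which destabilises inflammatory mRNAs, and *SYBU* (r = 0.990). *TSC22D4* was most like *ITGB4* (r = 0.994), an integrin of hemidesmosomes, *SH3TC1* (r = 0.993) and *DKK3* (r = 0.992). Among the genes most like *TSC22D2* were *KLF7* (r = 0.956) and *KLF4* (r = 0.946), both Kruppel-like transcription factors. *TSC22D1* was most like *GRB10* (r = 0.978), an adaptor of insulin receptor signalling, *APBB1IP* (r = 0.975) and *ATP1B1* (r = 0.972), a subunit of the sodium pump.

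Classical glucocorticoid targets set the scale for *TSC22D3*. Of 7 reference targets, 6 were tested, 5 of the 6 were called higher at 1 h and 6 of 6 at every later time. Of all genes tested, 0.523% were called higher at 1 h and 5.31 to 13.4% at the later times. At 1 h the log2 fold change was 2.66 for *PER1* (SE 0.17), 2.34 for *ZFP36* (SE 0.15) and 1.84 for *KLF9* (SE 0.21), a transcription factor, all below the 3.25 of *TSC22D3*. *FKBP5*, a chaperone that dampens receptor activity, had 0.52 at 1 h (SE 0.14) without passing the test (adjusted p = 0.135, edgeR) and climbed to 4.15 at 9 h (SE 0.13). The list's median was 1.62 at 1 h and 3.00 at 7 h, against -0.0017 and 0.00058 over all genes tested. These comparisons share their libraries with those of the members.

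Genes known to act on *TSC22D3* and *TSC22D1* moved in both directions. Of 13 listed regulators 12 were tested, of which 1 was higher at 1 h. At 3 h 3 were higher and 5 lower, with a median log2 fold change of -0.28. At 7 h 4 were higher and 3 lower, with a median log2 fold change of -0.12. Of all genes tested, 0.523% were higher at 1 h, 7.66% were higher and 5.29% lower at 3 h, and 13.4% were higher and 12.4% lower at 7 h. A difference from these shares was not tested. *FOXO1* and *FOXO3*, forkhead factors known to act on the GILZ promoter, rose from 3 h, with values of 1.21 (SE 0.18) and 1.40 (SE 0.11) at 3 h and 1.96 and 1.35 at 11 h. *TGFBR1*, a TGF-beta receptor, was higher at every time point, by 0.48 at 1 h (SE 0.11) and 1.20 at 3 h (SE 0.097). *TGFB2*, a TGF-beta ligand, fell, with log2 fold changes of -1.71 at 3 h (SE 0.11) and -2.12 at 11 h (SE 0.16). The median level of *TGFB2* was 114 CPM in EtOH and 36.8 CPM in dex.

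Among 13 known binding partners of GILZ, all of them tested, 2 were higher and 1 lower at 1 h. At 7 h 5 were higher and 1 lower, with a median log2 fold change of 0.13. Of all genes tested, 0.523% were higher and 0.342% lower at 1 h, and 13.4% higher and 12.4% lower at 7 h. A difference from these shares was not tested. *CEBPB*, a transcription factor, rose by 1.10 at 1 h (SE 0.13) and 1.72 at 5 h (SE 0.11). *SGK1*, a kinase that regulates sodium transport, rose by 0.57 at 1 h (SE 0.13) and 1.43 at 3 h (SE 0.10). The AP-1 subunits parted: *JUN* was lower by -1.20 at 1 h (SE 0.17) and by -0.78 at 3 h (SE 0.14) and was not called later, whereas *FOS* was higher from 3 h, by 0.72 (SE 0.22), up to 1.19 at 7 h (SE 0.21).

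Of 11 WNK pathway genes 10 were tested. None was called at 1 or 11 h, and at 7 h 5 were higher and 2 lower, with a median of 0.25. Of all genes tested, 13.4% were higher and 12.4% lower at 7 h, and 5.31% higher and 3.27% lower at 11 h. At 1 h the shares were 0.523% and 0.342%, and a difference from these shares was not tested. At 11 h the median was 0.29, against 0.0044 over all genes tested. *STK39*, the SPAK kinase downstream of WNK kinases, was higher at 5, 7 and 9 h, by 0.53 at 9 h (SE 0.13). *NRBP2*, a pseudokinase, was higher at 5 h by 0.53 (SE 0.18) and at 7 h by 0.45 (SE 0.17). The cotransporters at the end of the pathway fell: *SLC12A2* (NKCC1) by 0.83 on the log2 scale at 5 h (SE 0.11), and *SLC12A7* (KCC4) by 0.77 at 9 h (SE 0.17).

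**Figure D4:**
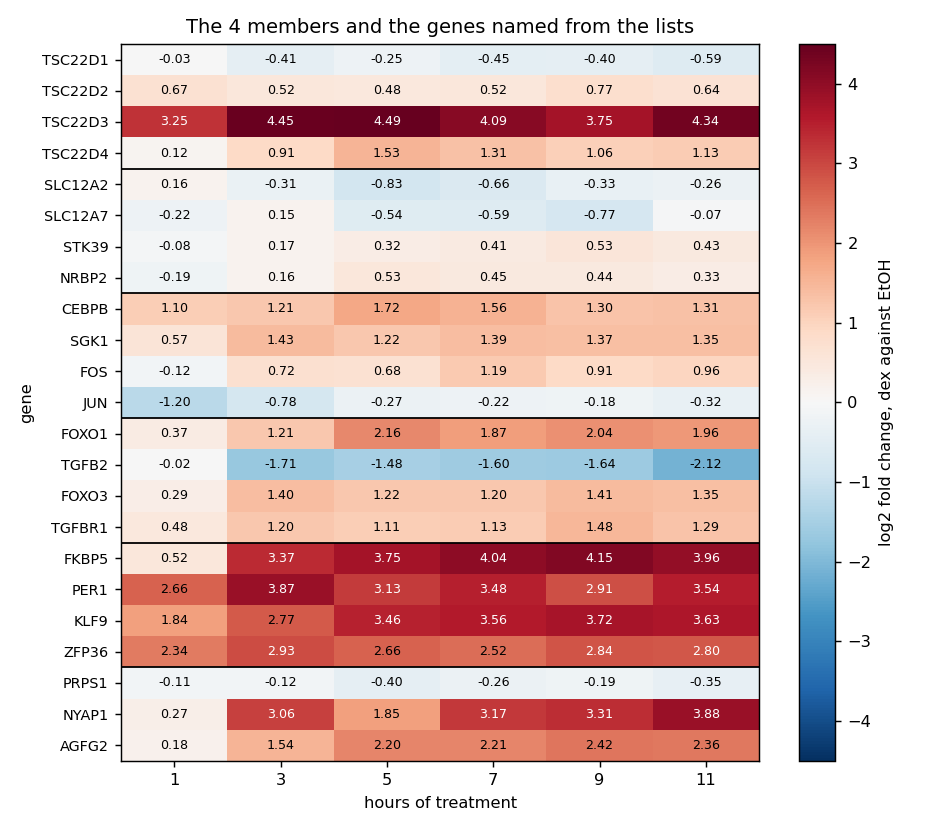
Log2 fold change of dex against EtOH (colour and printed number) at each hour of treatment (columns) for the 4 members and, below them between rules, the genes named from the WNK, GILZ partner, regulator, reference target and neighbour lists (rows). *TSC22D3* lies at 3.25 to 4.49, *FKBP5* goes from 0.52 at 1 h to 4.15 at 9 h, and *TGFB2* reaches -2.12 at 11 h.

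Of 70 gene symbols annotated within 250 kb of a member, 25 were tested and 3 were called at 2 or more consecutive time points, as were 18.9% of all genes tested. The pair with higher levels in dex, *NYAP1* and *AGFG2*, lies beside *TSC22D4*. *NYAP1* begins 4648 bases from it and runs on the opposite strand, and it had 1 to 9 counts in EtOH libraries and 1 to 44 in dex libraries, so it passed the filter through dex and its fold changes are given as a description. Its log2 fold change was 0.27 at 1 h (SE 0.82), 3.06 at 3 h (SE 0.59) and 3.88 at 11 h (SE 0.60). *AGFG2*, 59932 bases away, was at 7.84 to 11.6 CPM in EtOH and rose by 1.54 at 3 h (SE 0.15) and 2.42 at 9 h (SE 0.16). Neither was called at 1 h, when none of the 25 tested neighbours was called. Of all genes tested, 0.523% were called higher and 0.342% lower at that time. Next to *TSC22D3*, *PRPS1*, an enzyme of nucleotide synthesis, was lower at 5 h by -0.40 (SE 0.10) and at 7 h by -0.26 (SE 0.083), and the nearest tested gene, *MID2*, had log2 fold changes between -0.04 and 0.40 from 3 to 9 h and 0.72 at 11 h (SE 0.24), none of which passed the test. *SERP1*, the nearest tested neighbour of *TSC22D2*, was called at 5 h only, at 0.30 (SE 0.11, adjusted p = 0.0550, edgeR). At 3 h it had -0.17 (SE 0.11). No gene within that distance of *TSC22D1* passed the filter on low counts.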

How the data were processed

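RNA-seq was analysed from the 24 libraries of A549 cells described above. Libraries were stranded and poly-A selected and were read from 1 end over 50 bases. The authors aligned the reads with Bowtie to the transcripts of GENCODE and took per-transcript totals with samtools, so the deposited values are raw counts. The submitters' processing notes name hg19. The placement of reads that match several transcripts and the use of strand in counting were not given in the sources used here. Here, 110262 of 119207 transcripts (94.08% of counts) were joined by identifier to genes of GENCODE v29 (GRCh38), which also gave coordinates, and summed per gene. A transcript without a gene entered as a feature of its own (4560 of the 19897 tested, all called genes in the text). Promoters came from RefSeq (GRCh38.p14), which had windows for 3 of the 4 members.

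Tests used edgeR 4.0.16 (quasi-likelihood, TMM, filterByExpr over the 12 groups) on the 4 libraries of a time point, with Benjamini-Hochberg adjustment over all genes or transcripts tested and a threshold of 0.1. Mean effects and changes over time came from 1 fit to the 24 libraries, and isoform usage from diffSpliceDGE. Scripts were tested on simulated data. Beside the members, genes were named by rule: up to 4 per list called at 2 or more consecutive time points with the largest mean change, neighbours called likewise or nearest, and the 3 most correlated genes with at least 5 CPM, of which 1 is not reported here. The members and lists were chosen with earlier results of these data known. Alternatives were DESeq2 1.42.0, its size factors, other count filters, a replicate block, a joint fit, the single most counted transcript, a threshold of 0.05, and leaving out each library. At 52 to 1790 counts of *TSC22D3* and 45 to 202 of *TSC22D4* per library, precision is lowest for *TSC22D4*. Intervals cover counting error only.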

Additional observations from a re-analysis of the deposited data

Results flagged for a closer look

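The dex effect differed between time points for 3 of the 4 members, by edgeR's quasi-likelihood test of the difference itself in 1 fit to the 24 libraries, a test passed by 13.8% of all genes. For *TSC22D3* the adjusted p was 8.43e-05, and the effect grew by 1.22 on the log2 scale from 1 to 3 h. For *TSC22D4* the adjusted p was 0.0366 (edgeR), with values of 0.12 at 1 h and 1.53 at 5 h. For *TSC22D1* it was 0.0370 (edgeR), with values of -0.03 at 1 h and -0.59 at 11 h, and it did not pass with no filter on low counts (adjusted p = 0.227, edgeR). Groups of 2 libraries are too small for a test of single outlying libraries.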

How the results depend on the processing

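*TSC22D3* kept its direction and its call at all 6 time points in each of 48 results under alternative settings. The threshold of 0.05 is 1 of these settings and re-reads the main fit. In the 24 fits without 1 library *TSC22D3* kept its direction. Over all 4 members and 6 time points, 22 of 24 comparisons were called by edgeR, 21 by DESeq2, 21 with no filter on low counts and 21 with the single most counted transcript. In the main fits 0.523% of all tested genes were called higher at 1 h and 5.31 to 13.4% at the later times. Those called lower were 0.342% at 1 h and 3.27 to 12.4% later. *TSC22D1* at 5 h lost its call with DESeq2 (-0.24), with no filter (-0.25) and at a threshold of 0.05 (-0.25), and its change of effect over time lost its call with no filter (adjusted p = 0.227, edgeR), where more features are tested. *TSC22D2* at 1 h lost its call with the single most counted transcript (0.58). Some fits without 1 library lost a call or, for *TSC22D4* at 1 h, turned its direction. Their log2 fold changes ran, for *TSC22D1*, from -0.32 to -0.17 at 5 h, -0.41 to -0.38 at 9 h and -0.66 to -0.50 at 11 h. For *TSC22D2* they ran from 0.60 to 0.74 at 1 h, 0.39 to 0.63 at 3 h, 0.39 to 0.59 at 5 h and 0.50 to 0.78 at 11 h. For *TSC22D4* they ran from -0.25 to 0.50 at 1 h, 0.90 to 1.19 at 9 h and 0.98 to 1.28 at 11 h. The lone library left in an arm was assumed to vary like the others, and beyond the smaller number of libraries the cause of each loss was not tested. With the replicate number as a replicate block, 22 of 24 comparisons were called, no member's call changed and *TSC22D3* was 4.49 at 5 h. Same-numbered dex and EtOH libraries did not deviate together, with correlations of -0.059 to 0.135 over the 6 time points, so the numbers were not taken as pairs. DESeq2 gave no adjusted p for the change of *TSC22D4* over time in EtOH.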
